A study of Mus musculus with 15 samples.

Results

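Gene expression was compared between 2 sets of arrays that carry the same description: 3 arrays coded RB and 3 arrays coded GFW, out of 15 arrays in the series. Both sets are labelled as spleen cells of G-CSF treated C57Bl/6 mice, sorted as CD11b+CD34+ and negative for a lineage panel of CD4, CD8, Ly6G, B220 and Ter119, and both were taken straight from the mice without culture. G-CSF (granulocyte colony-stimulating factor) drives neutrophil production and releases stem and progenitor cells from the marrow. The arrays of each set were chosen by title code, not by their values, and the comparison itself was taken up with earlier results of these data known. What the codes RB and GFW stand for is not stated in the labels, nor are the age of the mice, the dose and duration of G-CSF, or whether mice were pooled. The first part of the title, JS for RB and Sousa for GFW, is the same split as the code, so set and title prefix cannot be told apart. The GFW arrays share the Sousa prefix with 3 arrays of the same sorted population from G-CSF treated iNOS knockout mice (GFK) and with 3 arrays of the population after 3 days in Flt3 ligand and SCF (GFE). A further 3 arrays hold Ly6C+CD11b+ suppressor cells (MDSC) from C57Bl/6 marrow cultures that received G-CSF together with GM-CSF and also IL-13, under a prefix of their own. The series is concerned with mobilised CD34+ regulatory monocytes, and this comparison addresses how far preparations with identical labels differ.

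As background, neutrophils and monocytes arise from shared marrow progenitors that carry the receptor Kit and the surface sialomucin CD34. On the way to a neutrophil, cells load granules in a fixed sequence: primary (azurophil) granules with myeloperoxidase and elastase at the promyelocyte stage, secondary granules with lactoferrin and lipocalin 2 at the myelocyte stage, and tertiary granules with gelatinase last, together with chemoattractant receptors such as Cxcr2. Monocytes instead rely on the transcription factors Irf8 and Klf4 and the receptor Csf1r. Classical monocytes follow Ccr2 out of the marrow, and patrolling monocytes depend on Nr4a1 and carry Cx3cr1.

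Values are log2 signals after RMA, a method that subtracts background, equalises the distribution of values between arrays and summarises the probes of a probe set. Array medians over all probe sets lay between 5.63 and 5.65 in RB and between 5.69 and 5.70 in GFW. Percentiles were taken over the probe sets with 1 gene symbol. Testing was limited to genes whose signal passed the array's 40th percentile, which lay from 5.34 to 5.58, on 3 or more arrays. This kept 14822 of 22180 genes with a single symbol. The 3 arrays of a single group sufficed, so some genes were tested only because that group was high. Differences are RB minus GFW in log2, so 1 is a 2-fold difference. Where the lower set had a mean under the 40th percentile, near background, the difference is a lower bound and is given as "at least". Calls rest on limma, with Benjamini-Hochberg adjustment over every gene tested and a threshold of 0.05. The 3 arrays per set limit the precision. The labels do not say that the arrays of a set came from separate mice, so p-values reflect only how these arrays vary, which may be technical. An exact permutation test of 3 arrays against 3 cannot go below p = 0.1.

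A majority of the genes tested differed between the sets. Monocyte genes were among the largest increases in RB and neutrophil genes among the largest decreases, beside genes of varied roles. Of the 14822 genes, 52.4% were called, 25.8% higher and 26.5% lower in RB. Calls of at least 2-fold took in 8.47% of genes as higher and 4.99% as lower. A difference of at least 16-fold was called for 11 genes higher and 30 genes lower in RB. The 3 RB values and the 3 GFW values did not overlap for 55.1% of genes. Many calls were small, 3212 of 7760 being under 1.5-fold. The balance between higher and lower calls depended on how arrays were scaled. It was 3831 higher against 3929 lower as deposited, 4112 against 3201 after subtracting each array's median over all probe sets, 4558 against 2690 with the median over genes with a symbol, and 3099 against 5635 with the median over genes tested. Those scalings placed the median of all genes at -0.06, 0.00, 0.06 and -0.20. Among calls of at least 2-fold the same scalings gave 1256 higher against 739 lower, 1396 against 649, 1574 against 592, and 967 against 983. Differences are therefore read against a median over all genes of -0.06, and no weight is put on the overall balance. The medians of 10 lists changed sign between scalings, namely tissue macrophage, chemokine, integrin and adhesion, Fc receptor, C-type lectin and scavenger receptor, dendritic cell, DNA replication, mitosis, interferon gamma response, and co-stimulatory ligand lists, and no direction is given for them. Where a list's counts lie near 25.8% higher and 26.5% lower, its members are described one by one and nothing is read from the counts.

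The distance between the sets exceeded that between arrays of a set. The median gene differed by 0.168 to 0.175 log2 between any 2 GFW arrays and by 0.178 to 0.223 between any 2 RB arrays, and by 0.402 to 0.437 between an RB and a GFW array. Between group means, 2006 genes differed by at least 2-fold for RB and GFW, 72 for GFW and GFK, and 1920 for RB and GFK. In the fit, 1.61% of genes were called between GFK and GFW in either direction. That comparison shares the GFW arrays with the one described here. The GFW arrays thus stood closer to the arrays labelled iNOS knockout, which share their title prefix, than to the RB arrays with the same labels.

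**Figure D1:**
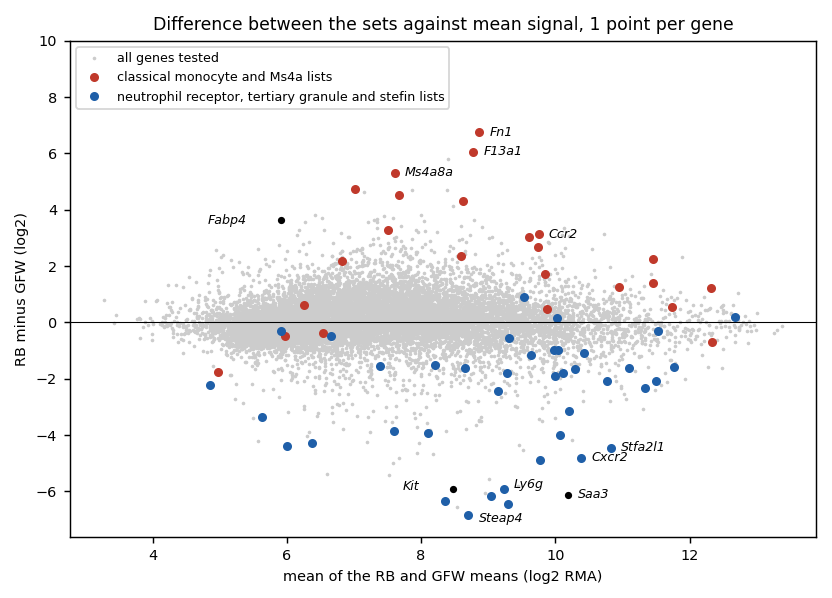
Difference between the sets (vertical, RB minus GFW, log2) against the mean of the 2 set means (horizontal, log2 RMA), 1 point per gene tested. Red points are members of the classical monocyte and Ms4a lists, blue points are members of the neutrophil receptor, tertiary granule and stefin lists, and 3 further genes are marked in black. Fn1 (at least 6.75) is the highest named point and Steap4 (at least -6.85) the lowest.

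The genes that define the sorting gate were compared first. Itgam, which encodes CD11b, stood at 11.46, 11.41 and 11.26 on the RB arrays and at 11.71, 11.62 and 11.67 on the GFW arrays. Its mean was at percentile 99.0 in both sets. Cd34 stood at 5.79, 5.99 and 5.96 in RB, percentile 52.5, and at 7.39, 7.18 and 6.99 in GFW, percentile 73.4. The CD34 transcript was thus near the middle of the probe sets with 1 gene symbol in RB, although the cells are labelled CD34+. It was 2.42-fold lower there than in GFW (standard error, SE, 0.16 log2, limma adjusted p = 7.19e-06). After culture (GFE) its mean was 11.28. Ly6g, whose protein was used to remove neutrophils, stood at 6.19, 6.25 and 6.38 in RB and at 12.21, 12.15 and 12.19 in GFW. It was 60.1-fold lower in RB (SE 0.10, adjusted p = 1.19e-15), and on the GFW arrays it ranked at percentile 99.5, which goes against a Ly6G-negative label at the level of RNA. The GFK arrays, of the same labelled gate, had a mean of 12.08, and the GFE and MDSC arrays means of 4.22 and 5.80. All 7 gate genes tested were called lower in RB (median -0.51), or 6 with arrays scaled by all probe sets and 5 by genes with a symbol. Besides the 3 above these were Ptprc (-0.43), which encodes CD45 and its B220 form, Cd8a (at least -0.75), Cd8b1 (at least -0.47) and Cd4 (-0.51), whose call was lost without GFW3 or RB1, and that of Itgam was lost without GFW1 or RB3. Surface protein was not measured here, and in bulk RNA fewer cells of a type cannot be told apart from less RNA per cell.

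Markers of classical monocytes and of neutrophils differed in opposite directions. Fn1, F13a1, Ly6g and Kit were given with the comparison beforehand and are counted among the monocyte, neutrophil and stem cell markers. The counts and means of those sets therefore rest in part on genes named in advance. All 7 classical monocyte markers were called higher in RB, and their mean signal was 11.58 to 11.91 on the RB arrays and 8.13 to 8.21 on the GFW arrays. Of 7 neutrophil markers, 6 were called lower in RB, with means of 8.33 to 8.41 and 11.79 to 11.83. The marker not called was lactoferrin, Ltf. Of 6 stem and progenitor markers with a probe set, 5 were called lower in RB, with means of 5.93 to 6.19 against 7.67 to 7.83. The 3 B cell markers with a probe set were all called lower in RB, Cd79a and Ms4a1 being near background there, with means of 4.67 to 5.18 against 5.79 to 6.41. Of 6 macrophage markers, 2 were called higher and 4 lower, and their means overlapped between the sets (7.56 to 8.11 against 8.04 to 8.32). The means of the 4 dendritic cell markers with a probe set overlapped too (5.77 to 6.13 against 6.11 to 6.45), with 1 called lower. The T cell genes Cd3e and Cd3g were near background in both sets. The means of the 4 T cell and NK cell markers with a probe set were 4.77 to 5.28 against 5.7 to 5.94. Of the 2 tested, 1 was called lower in RB. Of the 4 eosinophil markers, Prg2, Epx and Ccr3 were near background in RB and Epx in GFW, with means of 4.86 to 5.12 against 6.61 to 6.69. Erythroid Klf1 and the mast cell and basophil genes Cpa3 and Ms4a2 were near background in both sets. The means of the mast cell and basophil markers overlapped (5.16 to 5.39 against 5.35 to 5.75). Those of the 2 erythroid markers with a probe set did not (5.46 to 5.54 against 5.62 to 6.1). The 1 tested, Slc4a1, was called lower in RB, a call lost without GFW3 or RB1. Of 3 megakaryocyte markers, 2 were called lower, with means of 5.85 to 5.99 against 6.35 to 6.88. The part of these other cell types in the results that follow was not tested.

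**Figure D2:**
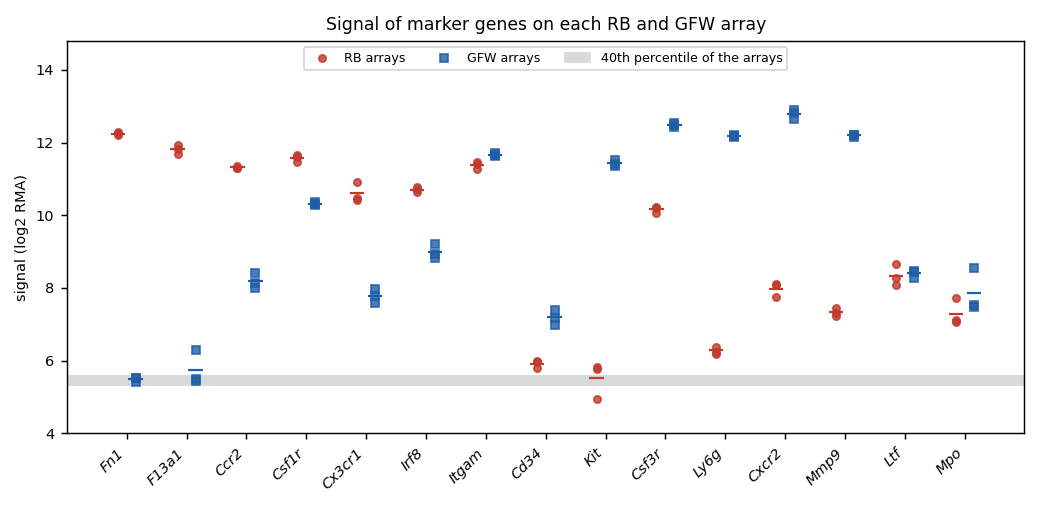
Signal (log2 RMA) of 15 genes on each of the 3 RB arrays (red circles) and 3 GFW arrays (blue squares), with horizontal ticks at the means of 3. The grey band is the range of the 40th percentile over the 15 arrays (5.34 to 5.58). Fn1, F13a1, Kit, Ly6g, Cxcr2 and Mmp9 lie far apart between the sets, while the Ltf and Mpo values of the sets overlap.

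Promoters of 4 genes with large differences are shown, since neutrophil and monocyte genes are both known to be bound by C/EBP and PU.1 factors. Ly6g and Steap4 are from the 20 genes lowest in RB, F13a1 and Ace from the 20 highest. Each run is taken from RefSeq (GRCm38.p6), 250 bases before to 50 after the annotated start, 5′ to 3′ on the gene's strand. Capitals mark matches on either strand to TTGCNNAA, a C/EBP-type sequence, or to GAGGAA, the core that PU.1 prefers. The Ly6g window is chr15:75155011-75155310, plus strand; that of Steap4 is chr5:7960222-7960521, plus strand; that of F13a1 is chr13:37050195-37050494, minus strand; that of Ace is chr11:105967698-105967997, plus strand.
Ly6g: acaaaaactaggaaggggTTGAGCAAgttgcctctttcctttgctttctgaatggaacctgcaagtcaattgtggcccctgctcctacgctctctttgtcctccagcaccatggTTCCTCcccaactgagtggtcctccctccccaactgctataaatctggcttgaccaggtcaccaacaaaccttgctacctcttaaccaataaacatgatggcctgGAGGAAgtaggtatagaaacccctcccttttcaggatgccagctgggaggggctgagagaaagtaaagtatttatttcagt
Steap4: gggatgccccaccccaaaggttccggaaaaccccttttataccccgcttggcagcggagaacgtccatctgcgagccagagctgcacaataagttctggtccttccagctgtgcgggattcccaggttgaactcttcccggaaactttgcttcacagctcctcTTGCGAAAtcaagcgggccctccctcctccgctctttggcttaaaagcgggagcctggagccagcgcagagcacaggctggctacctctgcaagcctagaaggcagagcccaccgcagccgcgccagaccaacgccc
F13a1: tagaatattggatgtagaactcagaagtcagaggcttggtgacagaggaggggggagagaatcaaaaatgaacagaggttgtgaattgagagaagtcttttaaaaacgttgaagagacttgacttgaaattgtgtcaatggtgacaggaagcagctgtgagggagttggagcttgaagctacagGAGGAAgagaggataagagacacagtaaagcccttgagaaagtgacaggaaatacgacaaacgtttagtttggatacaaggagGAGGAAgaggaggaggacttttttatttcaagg
Ace: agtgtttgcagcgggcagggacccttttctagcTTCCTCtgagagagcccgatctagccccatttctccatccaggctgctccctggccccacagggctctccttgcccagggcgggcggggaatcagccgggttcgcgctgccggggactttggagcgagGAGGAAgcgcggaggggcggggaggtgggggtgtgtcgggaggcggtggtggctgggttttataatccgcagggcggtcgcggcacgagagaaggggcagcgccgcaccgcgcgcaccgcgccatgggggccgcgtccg

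The Ly6g window held 1 match to TTGCNNAA and 2 to GAGGAA, and the Steap4 window 1 and 0. The F13a1 and Ace windows held none of the former and 2 each of the latter. RefSeq promoters were matched by symbol for 18 of the 20 lowest and 14 of the 20 highest genes. TTGCNNAA was present in 7 of the 18 (Steap4, Stfa1, Saa3, Ly6g, Csta3, Klra17 and Mgam) and in 2 of the 14 (Ifi213 and Pdlim1), where 10.8% of all 27025 promoters and 8.71% of those of genes tested held it. GAGGAA was present in 12 of the 18 and 5 of the 14, against 28.3% and 27.1%. These are 2 of 9 patterns searched on both strands, and the choice was made with the values known. The AP-1 pattern TGANTCA was found in 3 of 18 and 1 of 14 (7.93% of all), the interferon pattern AAANNGAAA in 2 and 1 (10.7%), the NF-kB pattern GGGGNNNCC in 3 and 2 (19.2%), and TGTGGTTT of RUNX factors in 0 and 1 (1.86%). The longer PU.1 forms GAGGAAGT and AGAGGAAGT, which contain GAGGAA, were found in 1 and 0 of the 18 and in none of the 14 (3.28% and 1.05% of all). The remaining pattern, a C/EBP-type sequence with different spacing from TTGCNNAA, was found in none of the 18 or the 14 (2.34% of all). A match is a run of letters and not a measured site, and several of the promoters belong to neighbouring copies of a gene family.

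Genes of classical monocytes were higher in RB. Of 14 tested, 12 were called higher and 1 lower, with a median difference of 1.55. Fibronectin (Fn1) was 12.28, 12.25 and 12.21 on the RB arrays and 5.42, 5.52 and 5.53 on the GFW arrays. The difference of at least 6.75 (SE 0.13, adjusted p = 5.25e-15) was the largest increase, from near the top of the array to background. The factor XIII A chain (F13a1), which cross-links fibrin and is a product of monocytes, read 11.94, 11.81 and 11.68 against 6.3, 5.50 and 5.45, a difference of 6.06. GFW1 stood above the other GFW arrays for this gene. Versican (Vcan), a matrix proteoglycan, read 10.62, 10.29 and 8.89 against 5.31, 5.78 and 5.16. Its RB3 value was well below those of RB1 and RB2, and the difference of at least 4.52 had a standard error of 0.32. Ccr2, the receptor for Ccl2, read 11.31, 11.30 and 11.35 against 8.01, 8.14 and 8.40, an 8.77-fold difference with tight values in both sets. Smaller differences were called for Klf4 (2.37), Chil3 (2.26), Irf8 (1.71), S100a4 (1.38), Csf1r (1.26), Ly6c2 (1.24) and Plac8 (0.54). Haptoglobin, Hp, was the member called lower (-0.70), and Ms4a3, a gene of granulocyte-monocyte progenitors, was not called (-0.48, adjusted p = 0.259). Ly6c2 was abundant in both sets, at a mean of 12.94 ± 0.07 (SD, n = 3) against 11.70 ± 0.13 (SD, n = 3).

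Patrolling monocyte genes were also higher for the most part, 8 of 13 being called higher and 3 lower (median 1.25). Angiotensin-converting enzyme (Ace) read 10.50, 10.84 and 10.88 in RB and 5.94, 5.91 and 6.24 in GFW, a 26.1-fold difference. The fractalkine receptor Cx3cr1 read 10.42, 10.48 and 10.91 against 7.77, 7.97 and 7.58 (7.13-fold). Nr4a1, the nuclear receptor that patrolling monocytes need, read 12.28, 12.25 and 12.34 against 10.50, 10.64 and 10.56. None of these values overlapped between the sets. Pparg (1.97), Spn (1.85), Cd36 (1.52), Eno3 (1.25) and Apoc2 (0.83) were called higher as well. Treml4 was not called (0.23, adjusted p = 0.219), and neither was Itgal (-0.23, 0.0573). Pglyrp1, which is also a neutrophil granule protein, was lower (-2.12), as was Cd300ld (-2.35). Most of the listed genes of classical and of patrolling monocytes were therefore higher in RB. Fcgr4 and Itgax, described with the Fc receptors and integrins below, were lower. The arrays do not tell whether the same cells expressed the genes of both lists.

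Macrophage genes did not move in one direction. Of 18 tested, 7 were called higher and 6 lower, beside 25.8% and 26.5% of all genes. Their median of -0.04 was 0.02, 0.08 or -0.18 under the other scalings. The sialic acid receptor Siglec1 read 8.5, 8.83 and 9.26 in RB and 6.44, 6.16 and 5.95 in GFW (2.68, SE 0.19), and Maf was higher by 1.43. Adgre1, which encodes F4/80, was higher by 0.85 and C1qb by 0.99. The other chains of the same complex did not follow C1qb: C1qa was lower (-0.56, adjusted p = 0.0131), a call lost without GFW3 or RB1, and C1qc was not called (-0.29, adjusted p = 0.244). The iron exporter Slc40a1 read 7.65, 7.69 and 8.79 against 11.44, 11.44 and 11.50, a 10.7-fold lower signal in RB. Vcam1 (-1.20) and the splenic macrophage gene Cd5l (at least -1.53) were lower too. RB3 was the highest RB array for Siglec1, Slc40a1 and Vcam1, and for all of them the sets did not overlap.

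The Ms4a family encodes small membrane proteins with several spanning segments, lies in a cluster on chromosome 19, and includes many members used as monocyte markers. Of 11 tested, 8 were called higher and 2 lower in RB (median 2.69). Ms4a8a read 10.36, 10.24 and 10.18 in RB and 5.11, 4.64 and 5.11 in GFW, and Ms4a4a 9.50, 9.45 and 9.18 against 4.62, 4.45 and 4.85. Ms4a4c read 10.65, 10.81 and 10.92 against 5.84, 6.75 and 6.82. These are differences of at least 5.31, at least 4.73, and 4.33. Ms4a6d (3.29), Ms4a6c (3.02), Ms4a6b (2.69) and Ms4a7 (2.18) followed. Ms4a1, which encodes the B cell antigen CD20, was lower (at least -1.74), as was Ms4a15 (-0.37). Ms4a4a was near background in GFK, GFE and MDSC alike (means of 4.91, 4.36 and 5.12), whereas Ms4a6c stood at 11.22 after culture. Since Ms4a4a was low in GFW as well, it passed the filter for testing through its RB values. The count and median of this list include it and are no separate support for a difference. The call for Ms4a4d (0.61, adjusted p = 0.0392) was lost when GFW1, GFW2, GFW3, RB2 or RB3 was left out. Near-identical members of this family can share probes, so their values may not be independent.

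The neutrophil genes were then taken in the order in which their products are made. Of 11 primary granule genes tested, 2 were called higher and 4 lower. Their median of -0.48 was -0.20 without GFW2 and -0.27 without RB2, and the values of the defining enzymes overlapped between the sets. Myeloperoxidase (Mpo) read 7.05, 7.12 and 7.72 in RB and 7.47, 8.56 and 7.53 in GFW (-0.56, SE 0.25, adjusted p = 0.0717). Elastase (Elane) read 7.32, 6.90 and 7.46 against 7.30, 6.90 and 6.44 (0.35, adjusted p = 0.206), and Prtn3 and Ctsg were not called either (0.21 and -0.32). All 4 were far higher on the MDSC arrays, with means of 11.38 for Mpo and 11.34 for Elane. Prss57 (-1.41) and Nkg7 (-1.25) were lower in RB, and Serpinb1a (0.86) and Calr (0.60) were higher.

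Secondary granule genes moved in both directions, 5 of 14 being called higher and 8 lower (median -0.60). Lipocalin 2 (Lcn2), which binds bacterial siderophores, read 10.27, 10.12 and 9.19 in RB and 11.89, 11.94 and 12.04 in GFW. Chil1 read 6.22, 6.73 and 6.67 against 12.33, 12.36 and 12.32, a 55.5-fold lower signal in RB, and Ceacam10 4.81, 5.84 and 6.20 against 10.10, 10.13 and 10.54. The cathelicidin Camp went the other way, at 8.81, 8.79 and 8.73 against 6.50, 6.10 and 6.47 (5.37-fold higher in RB), and so did Fcnb (at least 1.61). The oxidase subunit Cybb, shared with monocytes, was higher by 1.95. Lactoferrin (Ltf) read 8.26, 8.07 and 8.66 against 8.46, 8.28 and 8.45 and was not called (-0.07, adjusted p = 0.688). Olfm4 was lower (at least -2.06) and Ngp was lower (-1.17). Genes of a single granule class therefore ranged from 5.37-fold higher to 55.5-fold lower.

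Tertiary granule and secretory vesicle genes were lower in RB with few exceptions, 10 of 12 being called lower and 1 higher (median -1.72). Gelatinase B (Mmp9) read 7.24, 7.44 and 7.31 in RB and 12.22, 12.22 and 12.15 in GFW, 29.2-fold lower. The resistin-like Retnlg read 8.05, 8.10 and 8.07 against 12.07, 12.09 and 12.09, 16.1-fold lower with almost no spread in either set. Mmp25, a membrane-bound protease of neutrophils, was lower (-3.92), as were Fpr2, a receptor for formylated peptides (-2.07), and the collagenase Mmp8 (-2.07). The alkaline phosphatase Alpl was not called (-0.30, adjusted p = 0.163), and Ptgs2, the inducible cyclooxygenase, was the member called higher (0.90). Itgam (-0.29, adjusted p = 0.0181) is also counted here.

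Neutrophil surface and chemotaxis receptors were all lower in RB: 17 of 17 tested were called lower, 15 of them by at least 2-fold, with a median of -1.78. The chemokine receptor Cxcr2, which draws neutrophils to Cxcl1 and Cxcl2, read 7.76, 8.07 and 8.12 in RB and 12.81, 12.90 and 12.65 in GFW, 27.9-fold lower. Cxcr1 read 5.76, 5.81 and 5.43 against 9.54, 9.35 and 9.65. The metalloreductase Steap4 read 5.74, 5.07 and 5.04 against 12.17, 12.23 and 12.01, at least 115-fold lower and the largest decrease of all named genes. The G-CSF receptor Csf3r, the target of the treatment given to the mice, read 10.21, 10.24 and 10.06 against 12.55, 12.49 and 12.43, 4.99-fold lower but still well above background. Clec4d (-3.15), C5ar1 (-2.43), Il1r2 (-1.90), Trem1 (-1.78) and Clec4e (-1.61) were also lower. C5ar1 read 8.46, 8.41 and 6.93 in RB, so RB3 was well below the other RB arrays. The smallest differences were those of the leukotriene receptor Ltb4r1 (-0.57) and of Cd177 (-0.99).

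The stefin A genes, a cluster of cysteine protease inhibitors on chromosome 16, had the lowest median of all lists. Of 11 stefin and related cystatin genes tested, 9 were called lower and none higher in RB (median -4.27). Stfa1 read 6.66, 5.32 and 6.25 in RB and 12.50, 12.50 and 12.57 in GFW. Stfa3 read 5.07, 5.48 and 5.0 against 11.60, 11.44 and 11.56, and Cstdc4 6.49, 5.98 and 5.41 against 12.20, 12.05 and 12.11. These are 87.3-fold, at least 81.8-fold and 71.4-fold lower signals, and the GFW arrays lay close together in each case. Stfa2l1 was lower (-4.45) but kept a level of 8.32 to 8.79 in RB. The broadly expressed cystatins Cst3 (0.19) and Cstb (0.14) were not called. The call for Cst7 (-0.47) was lost without GFW1, GFW2, GFW3, RB1 or RB2. The stefins were low after culture (a mean of 4.82 for Stfa1) and high in MDSC (12.61). Near-identical copies can share probes, so the members are not independent measurements.

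**Figure D3:**
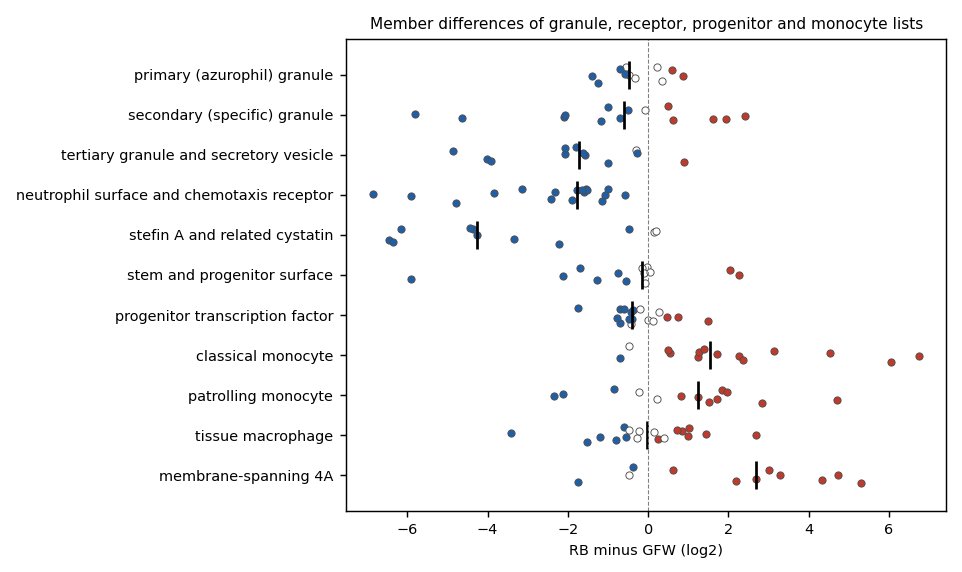
Differences (horizontal, RB minus GFW, log2) of the members tested of 11 gene lists, 1 point per gene, with a black bar at the median of each list. Filled red points were called higher and filled blue points lower in RB, and open points were not called. The medians run from -4.27 for the stefins to 2.69 for the Ms4a family.

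The remaining genes with the largest decreases had varied roles. Prokineticin 2 (Prok2), a secreted chemoattractant of myeloid cells, read 5.19, 5.44 and 5.13 in RB and 11.70, 11.93 and 11.82 in GFW, at least 94.6-fold lower. Serum amyloid A3 (Saa3) read 8.23, 7.06 and 6.10 against 13.25, 13.26 and 13.24. The RB arrays differed among themselves widely for this gene while the GFW arrays were nearly equal. Il1f9, an IL-1 family cytokine, read 6.06, 5.71 and 5.95 against 11.93, 12.07 and 11.93. The other named genes, by difference, were Asprv1 (-5.54), Mir290a (at least -5.43), Csta3 (at least -5.39), Klra17 (at least -4.97), Mgam (at least -4.81), Dhrs9 (-4.67) and Mrgpra2a (-4.54). On the GFK arrays all 20 genes with the largest decreases lay within 1 log2 of GFW. On the GFE arrays this held for Kit alone, and on the MDSC arrays for 5. The median over the 20 was 5.87 in RB, 11.81 in GFW, 11.95 in GFK, 4.90 in GFE and 7.82 in MDSC.

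The remaining genes with the largest increases were likewise varied. Thrombospondin 1 (Thbs1), an adhesive matrix glycoprotein, read 11.69, 11.22 and 10.99 in RB and 5.47, 5.28 and 5.74 in GFW, at least 55.8-fold higher. The scavenger receptor Msr1 read 9.72, 9.80 and 8.88 against 5.14, 4.67 and 4.67. Heparanase (Hpse), which cleaves heparan sulfate, read 10.34, 10.74 and 10.55 against 6.50, 6.47 and 6.29 (17.5-fold). All 3 were separated from GFW on every array. The other named genes were Nxpe4 (at least 4.71), the DNA sensor family member Ifi213 (at least 3.83), the membrane repair protein Myof (3.82), Zfyve9 (at least 3.78), Nlrp1c-ps (at least 3.72), the phospholipase Plcb1 (3.71), Cln8 (at least 3.68), Pdlim1 (3.64), the fatty acid binding protein Fabp4 (at least 3.63) and the transporter Abca9 (at least 3.63). On the GFK arrays 19 of the 20 genes with the largest increases lay within 1 log2 of GFW. The exception was Fabp4, at a mean of 7.68 in GFK and 7.65, 7.92 and 7.61 in RB. On the GFE arrays 16 of the 20 lay within 1 log2 of GFW, and on the MDSC arrays 12. Vcan and Cln8 lay within 1 log2 of RB on the MDSC arrays. The median over the 20 was 9.92 in RB, 5.50 in GFW, 5.53 in GFK, 5.17 in GFE and 5.77 in MDSC. Predicted models and antigen receptor segments are counted without being named, and of these 169 were called higher and 378 lower.

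Kit had the largest difference among the stem and progenitor genes tested. Kit, the receptor for stem cell factor, read 5.83, 4.95 and 5.77 in RB and 11.52, 11.41 and 11.36 in GFW, 60.4-fold lower (SE 0.18, adjusted p = 9.81e-13). It is expressed by progenitors and mast cells, and it stood at means of 11.23 in GFK, 10.85 in GFE and 8.96 in MDSC, so RB was the lowest of the 5 groups. Of 13 stem and progenitor surface genes, 2 were called higher and 6 lower. Their median of -0.15 was -0.41 without RB1, -0.25 without GFW1 and -0.09 without GFW2. Adgrl4 was lower (at least -2.13), as were Cd9 (-1.69) and, with overlapping values, Flt3 (-0.74), the receptor for Flt3 ligand. Cd93 (2.26) and Cd48 (2.03), which mature monocytes also carry, were higher. Of 17 progenitor transcription factors, 3 were called higher and 9 lower (median -0.41), the latter being 5 with arrays scaled by genes with a symbol and 11 by genes tested. Myb, required for progenitor growth, read 5.30, 5.95 and 5.78 against 7.01, 7.73 and 7.55 (-1.75, SE 0.18). Gata2 (-0.69), Tal1 (at least -0.70) and Erg (at least -0.77) were lower, whereas Lyl1 (1.49), Runx1 (0.74) and Ikzf1 (0.47) were higher. Hoxa9 (-0.01, adjusted p = 0.978), Meis1 (0.26, 0.111) and Myc (0.12, 0.391) were not called. Cd34 differed by -1.27.

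Among transcription factors of myeloid cells, 5 of 20 were called higher and 8 lower (median -0.15, or -0.23 without RB3). The monocyte factor Klf4 stood at 9.78 ± 0.23 against 7.41 ± 0.13 (SD, n = 3), and Irf8 read 10.71, 10.63 and 10.77 against 8.83, 9.22 and 8.93. Irf4 (1.47), Batf3 (1.12) and Cebpa (1.02) were higher as well. Cebpd read 7.08, 7.04 and 7.02 against 9.06, 8.86 and 8.94 and was 3.75-fold lower in RB. Id2 (-1.65), Klf2 (-1.45), Egr2 (-1.32), Spi1 (-0.68), which encodes PU.1, Gfi1b (-0.67), Klf6 (-0.66) and Gfi1 (-0.57), a repressor in neutrophil development, were lower. Cebpb (-0.10, adjusted p = 0.512) and Cebpe (-0.07, 0.835), the factor of late granules, overlapped between the sets. C/EBP family members therefore ranged from 1.02 for Cebpa to -1.91 for Cebpd.

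Receptors were compared next, starting with those for cytokines and growth factors. Of 29, 7 were called higher and 17 lower (median -0.58). Beside Kit and Csf3r, the IL-1 receptor accessory protein Il1rap was lower (6.39, 6.68 and 6.81 against 8.75, 8.89 and 8.86), as were Il4ra (-1.81), Il18r1 (at least -1.5), Il13ra1 (-1.44) and the shared chain of the GM-CSF, IL-3 and IL-5 receptors, Csf2rb (-0.95) with Csf2rb2 (-1.18). The GM-CSF binding chain Csf2ra was not called (0.18, adjusted p = 0.142). Il6st, the signalling chain gp130, read 10.21, 10.18 and 10.37 against 8.69, 8.84 and 8.90 and was 2.71-fold higher in RB. Il3ra (1.39), Il10ra (1.30) and the M-CSF receptor Csf1r (1.26) were higher, and the partner chain Il10rb was lower (-1.01). Both chains of the interferon gamma receptor were slightly lower, Ifngr1 (-0.58) and Ifngr2 (-0.40).

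Of 16 chemokine receptors, 5 were called higher and 8 lower (median -0.47). Ccr2 and Cx3cr1 were the most increased, followed by Cmklr1 (1.08), Cxcr6 (0.76) and Ccrl2 (0.51). Cxcr2 and Cxcr1 were the most decreased, followed by the eosinophil receptor Ccr3 (at least -2.73) and Ccr1, which read 8.53, 8.35 and 7.55 in RB against 10.77, 10.63 and 10.75 (-2.57). Cxcr4, which holds cells in the marrow, was abundant in both sets and lower in RB (-0.64). Of 20 chemokines, 4 were called higher and 6 lower. Ccl9 read 11.48, 11.36 and 11.52 in RB against 8.77, 8.74 and 8.96 (6.17-fold higher), and Ccl3 was higher by 0.68. The neutrophil attractant Cxcl2 read 10.59, 10.85 and 10.34 against 12.20, 12.17 and 12.16 (-1.58), and Ccl2, the ligand of Ccr2, 10.09, 9.65 and 9.14 against 11.27, 11.45 and 11.28 (-1.71). Ccl5 (-1.14) and Ccl4 (-0.98) were lower too, so the related Ccl3 and Ccl4 moved in opposite directions.

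Toll-like receptor genes are given one by one. Of 20 receptors, co-receptors and adaptors, 6 were called higher and 9 lower (median -0.29), beside 25.8% and 26.5% of all genes. The endosomal nucleic acid receptors Tlr7 and Tlr9 were higher in RB. Tlr7 read 10.64, 10.45 and 10.59 against 8.72, 8.75 and 8.87 (3.44-fold), and Tlr9 9.89, 10.29 and 10.42 against 7.65, 8.63 and 7.97 (4.33-fold). Tlr8 was not called (0.31, adjusted p = 0.109), and Tlr3, which senses double-stranded RNA, was lower (-1.29). The receptors for lipopolysaccharide and lipopeptides were lower. Tlr4 read 7.52, 7.54 and 7.41 against 9.12, 9.20 and 9.12 (-1.66), and Tlr1 (-1.55), Tlr6 (-1.49), the Tlr4 partner Ly96 (-1.06) and the adaptor Myd88 (-1.22) followed. Tlr2 was lower (-0.35), a call lost without RB3 (adjusted p up to 0.0598). Cd180, a relative of Tlr4, and its partner Ly86 rose together, by 2.48 and 2.84. The adaptor Ticam2, which links Tlr4 to Ticam1, read 8.95, 8.77 and 9.03 against 6.10, 5.93 and 6.26 (2.82). The chaperone Unc93b1, which delivers Tlr7 and Tlr9 to endosomes, was not called (0.10, adjusted p = 0.415).

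Fc receptors bind the constant part of antibodies. Of 8 tested genes, 3 were called higher and 3 lower, beside 25.8% and 26.5% of all genes, and nothing is read from this split. The high-affinity receptor Fcgr1 read 10.17, 10.25 and 10.42 in RB against 7.38, 7.14 and 7.03 (8.52-fold higher), and the inhibitory receptor Fcgr2b 9.11, 9.51 and 9.54 against 7.53, 7.69 and 7.23 (3.75-fold). Fcgrt, which recycles IgG, was higher by 2.10. Fcgr4 read 8.96, 9.62 and 8.67 against 11.01, 10.97 and 11.14 (3.88-fold lower), and Fcgr3 was lower (-0.62). The shared signalling chain Fcer1g (-0.20, adjusted p = 0.0577) and the kinase Syk (0.10, 0.401) were not called.

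**Figure D4:**
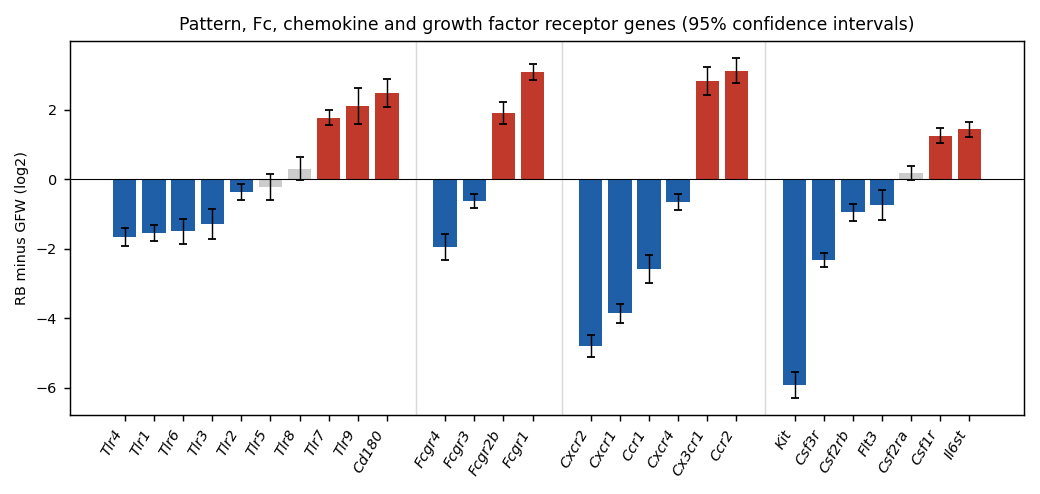
Difference RB minus GFW (log2) of 27 receptor genes, as bars from 0 with 95% confidence intervals from the fit over 15 arrays. Red bars were called higher, blue bars lower and grey bars were not called, and vertical lines separate pattern, Fc, chemokine and growth factor receptors. Each of the 4 families holds genes on both sides of 0, from Kit (-5.92) to Ccr2 (3.13).

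Of 19 C-type lectins and scavenger receptors, 9 were called higher and 6 lower, beside 25.8% and 26.5% of all genes. Beside Msr1, Clec10a was higher by at least 2.15, the lipoprotein receptor Scarb1 by 2.04 and Clec4a1 by 1.5. Clec4d, Clec4n (-1.67), Clec4e (-1.61) and the beta-glucan receptor Clec7a (-1.18) were lower, so related members of the family moved in opposite directions. Of 24 integrin and adhesion genes, 9 were called higher and 7 lower, beside the same shares of all genes. Itgb7 read 9.93, 9.70 and 9.76 against 6.90, 7.22 and 7.12 (6.56-fold higher), Itgb5 9.10, 8.95 and 8.90 against 6.57, 6.47 and 6.64 (5.36-fold), and Itga1 (at least 2.06) and Itgav (1.44) were higher. Itgax, which encodes CD11c, read 7.2, 7.38 and 7.58 against 9.51, 9.41 and 9.56 (4.30-fold lower), and the selectin ligand Selplg was lower (-1.15). The common beta chain Itgb2 differed by -0.42. Of 21 matrix and coagulation genes, 10 were called higher and 3 lower (median 0.31), or 9 and 6 with arrays scaled by genes tested. After the genes already named, urokinase (Plau, 1.74), Ecm1 (1.14), coagulation factor X (F10, 0.99) and factor V (F5, 0.74) were higher, and Timp2 (-1.62) and Mmp19 (-1.57) lower. Tgfbi, a secreted matrix protein of monocytes, read 12.25, 12.34 and 12.16 against 12.36, 12.30 and 12.33 and was not called (-0.08, adjusted p = 0.532).

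Of 19 inflammatory cytokine genes, 5 were called higher and 7 lower, beside 25.8% and 26.5% of all genes. Il1b read 10.89, 10.89 and 11.02 in RB and 12.92, 12.97 and 12.96 in GFW (4.05-fold lower), and its antagonist Il1rn 7.52, 7.50 and 7.65 against 9.89, 9.84 and 9.81 (4.88-fold lower). Csf1, the ligand of Csf1r, was lower (-3.01) and so was Il12a (at least -2.34). Il6 was near background in GFW and higher in RB by at least 2.21, Il18 was higher by 1.38 and Tgfb1 by 0.86. Tnf read 8.65, 8.80 and 8.61 against 8.57, 8.28 and 8.68 and was not called (0.18, adjusted p = 0.268). Of 19 genes tied to suppression of T cells and arginine use, 3 were called higher and 9 lower. Galectin 1 (Lgals1) read 11.42, 11.43 and 11.10 against 8.33, 8.41 and 8.71 (7.14-fold higher). Arginase 2 (Arg2) read 7.44, 6.93 and 7.05 against 10.56, 10.77 and 10.63 (11.4-fold lower), inducible nitric oxide synthase (Nos2) 5.80, 6.21 and 5.94 against 8.09, 8.32 and 8.43 (4.92-fold lower), and the ectonucleotidase Entpd1 was lower (-1.81). Arg1, near background in GFW, was not called (0.32, adjusted p = 0.184). Of 19 ligands and receptors that tune T cells, 7 were called higher and 7 lower. Among them, Pvr (2.45), Cd40 (1.39), Cd80 (1.32) and Cd86 (0.93) were higher, and Tnfsf14 (-3.35), Nectin2 (-1.22) and Cd274 (-1.0), which encodes PD-L1, lower.

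Genes of MHC class II presentation were mostly lower in RB. Of 9, 6 were called lower and 1 higher (median -0.86). H2-Aa read 9.39, 9.68 and 10.49 in RB against 10.73, 10.77 and 10.97 (-0.97), H2-Ab1 was lower (-0.78) and so was H2-Eb1 (-1.11). The peptide editors separated. H2-DMb2 (-2.21) and H2-Oa (-1.75) were lower, while H2-DMa read 10.41, 10.44 and 10.85 against 9.24, 9.54 and 9.40 and was higher by 1.17. The class II activator Ciita was not called (-0.19, adjusted p = 0.34). The RB arrays shared an order for H2-Aa, H2-Ab1 and H2-Eb1, with RB3 highest and RB1 lowest. B cell genes moved with this list: of 13, 9 were called lower and none higher, among them Jchain (at least -3.53), Ms4a1 (at least -1.74) and Ighm (-1.09), and B220 was in the lineage panel. Their part in the class II result was not tested. The dendritic cell gene Zbtb46 was not called (-0.19, adjusted p = 0.163), and Xcr1 was lower (-0.85).

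Of 24 lysosome and cathepsin genes, 13 were called higher and 4 lower (median 0.41), or 12 and 4 with arrays scaled by genes tested. Legumain (Lgmn), an endosomal protease, read 10.07, 10.44 and 10.32 against 8.16, 8.03 and 8.36 (4.26-fold higher), and Gusb (1.40), Ctsc (1.30), Npc2 (1.30) and Ctsh (1.22) followed. Cathepsin E (Ctse, -1.85) and cathepsin D (Ctsd, -1.02) were lower. Of 15 lipid handling genes, 7 were called higher and 4 lower. Their median of 0.45 was 0.19 without RB2. Lipoprotein lipase (Lpl) read 8.98, 8.82 and 9.65 against 5.75, 6.27 and 5.67 (9.54-fold higher), the endocytic receptor Lrp1 10.89 ± 0.14 against 8.67 ± 0.04 (SD, n = 3), a 4.68-fold difference, and Pltp and Pparg were higher by 2.18 and 1.97. The cholesterol exporter Abca1 was lower (-1.76), as was Fabp5 (-1.23), in contrast to Fabp4. Abcg1, another exporter, was not called (0.15, adjusted p = 0.284).

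Genes of the respiratory chain, the ribosome and protein folding were called higher more often than lower. Of 23 respiratory chain subunits, 15 were called higher and 2 lower (median 0.49), and 2 of the 15 reached 2-fold: Uqcrc1 (1.15) and Ndufb5 (1.02). Of 19 ribosomal protein genes, 15 were called higher and none lower (median 0.42), led by Rpl10a, at 11.95, 12.02 and 11.93 against 10.29, 10.41 and 10.26 (3.13-fold). Of 17 heat shock and folding genes, 14 were called higher and 2 lower (median 0.63). Bag3 (1.74), the endoplasmic reticulum chaperone Canx (1.29) and mitochondrial Hspa9 (1.24) were higher with little spread. Under the scaling by genes tested these counts were 12 higher and 3 lower, 12 and 0, and 12 and 2. Glycolysis and hypoxia genes went the other way, 1 of 20 higher and 11 lower (median -0.44). The glucose transporter Slc2a3 read 5.12, 5.77 and 6.23 against 9.12, 9.42 and 9.04 (11.2-fold lower), Egln3, an oxygen sensor of the hypoxia response, was lower (at least -3.12), and so were Slc2a1 (-1.65), Bnip3 (-1.56) and Pfkfb4 (-1.55). Gapdh (-0.16, adjusted p = 0.139), Pkm (-0.01, 0.925) and Pgk1 (-0.14, 0.281), core enzymes of the pathway, were not called. Of the cell division genes, 4 of 23 mitosis genes were called higher and 3 lower, and Mki67 read 8.43, 8.08 and 8.54 against 8.55, 8.54 and 8.70 (-0.24, adjusted p = 0.236).

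**Figure D5:**
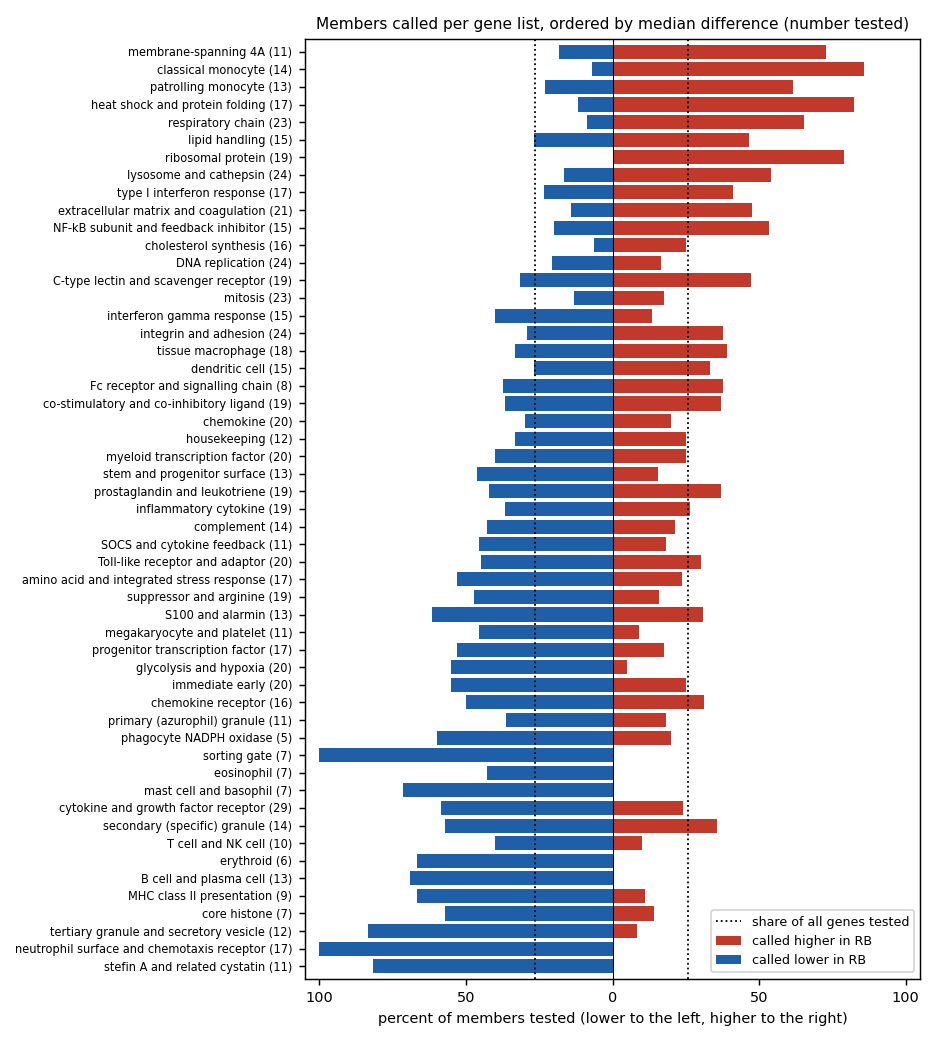
Percent of the members tested that were called higher (red, to the right) or lower (blue, to the left) in RB, for each gene list with at least 5 members tested, ordered by median difference, with the number tested in parentheses. Dotted lines mark the shares over all genes tested (25.8% higher and 26.5% lower). The Ms4a, classical monocyte and patrolling monocyte lists are at the top, and the stefin and neutrophil receptor lists at the bottom.

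Some genes that respond quickly to stimulation or handling were opposed. Of 20 immediate early genes, 5 were called higher and 11 lower (median -0.47). Atf3 read 11.25, 11.18 and 11.46 in RB against 9.02, 8.81 and 8.97 (5.15-fold higher), and Dusp2 was higher by 1.62. Egr1 read 8.22, 8.75 and 8.30 against 10.34, 10.43 and 10.44 (3.94-fold lower), and Junb (-0.97), Ier2 (-0.92) and Jun (-0.86) were lower. Fos read 10.53, 10.54 and 10.59 against 10.32, 10.52 and 10.42 and was not called (0.13, adjusted p = 0.315). Of 15 NF-kB subunits and feedback inhibitors, 8 were called higher and 3 lower, or 6 and 5 with arrays scaled by genes tested, and 1 was called lower without GFW1 or GFW2. Nfkbie, an inhibitor of NF-kB, read 9.61, 9.81 and 9.74 against 7.46, 7.73 and 7.2 (4.77-fold higher), and Tnfaip3 was higher by 1.95. Type I interferon genes did not move together: Mx2 (at least 2.41) and Mx1 (at least 2.16) were higher, and Ifit1 (-1.85), Oasl2 (-1.55) and Isg15 (-1.08) lower, with 7 of 17 called higher and 4 lower. That balance was 4 higher and 6 lower under the scaling by genes tested and ranged from 4 to 8 higher and from 4 to 6 lower when arrays were left out in turn, with 4 higher without GFW2 or RB3.

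Within the sets, the RB arrays were the more spread. The median SD over 3 arrays was 0.182 in RB and 0.151 in GFW, and 630 genes in RB and 331 in GFW had an SD above 0.5. The inducible heat shock genes Hspa1b and Hspa1a, which lie side by side and are near-identical, were among the most variable genes in RB. Hspa1b read 9.35, 8.02 and 10.98 in RB and 6.97, 6.63 and 6.38 in GFW, and Hspa1a 9.77, 8.04 and 10.45 against 7.85, 7.01 and 7.34. Both were highest on RB3 and lowest on RB2, and their differences of 2.79 and 2.02 had standard errors of 0.50 and 0.42. The other genes with the largest SD in RB were Snord37 (1.55), Gbp8 (1.31), Polr2d (1.18), Mir186 (1.15), Cxcl3 (1.11) and H4c8 (1.09). In GFW they were H4c8 (1.65), Rabggtb (1.56), Scarna6 (1.41), Snord37 (1.30), Zfp141 (1.30), Acss1 (1.24), Scarna10 (1.19) and H2bc12 (1.16). Of the transcripts that separate sexes and substrains, Xist stood at 11.25, 11.01 and 11.12 in RB and at 10.44, 10.41 and 10.26 in GFW. The Y-linked genes Uty, Kdm5d and Eif2s3y were near background on all 6 arrays. Nnt, which carries a deletion in some C57Bl/6 substrains, read 6.84, 7.0 and 6.68 against 6.17, 6.35 and 6.32.

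Probe sets named for microRNA genes were followed because several belong to clusters known in myeloid cells. Their selection followed a look at the values. The mature sequences below are from RefSeq (GRCm38.p6), 5′ to 3′, with the seed (bases 2 to 8) that pairs with targets in capitals. They show which of the genes named here share a seed.
miR-15a-5p: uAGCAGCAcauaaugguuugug
miR-16-5p: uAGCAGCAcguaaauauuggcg
miR-17-5p: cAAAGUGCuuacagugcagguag
miR-18a-5p: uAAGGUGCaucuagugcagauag
miR-23a-3p: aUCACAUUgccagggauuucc
miR-27a-3p: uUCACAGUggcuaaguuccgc
miR-7a-5p: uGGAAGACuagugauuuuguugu
miR-142a-5p: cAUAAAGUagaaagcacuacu
miR-142a-3p: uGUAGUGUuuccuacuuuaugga
miR-290a-3p: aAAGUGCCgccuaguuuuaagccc
miR-99b-5p: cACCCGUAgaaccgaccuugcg

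Only miR-15a-5p and miR-16-5p have the same seed among these 11 sequences. Their genes lie together on chromosome 14, and both were higher in RB. Mir15a read 9.71, 9.69 and 9.37 in RB and 7.87, 7.41 and 8.17 in GFW (1.77, SE 0.28), and Mir16-1 6.29, 6.89 and 6.48 against 4.85, 4.63 and 4.48 (at least 1.90, SE 0.17). Mir23a (2.26) and Mir27a (1.95), neighbours on chromosome 8, were higher as well. Of the cluster that holds Mir17 and Mir18, Mir18 was higher by at least 2.25, and Mir17 by at least 1.10 with an adjusted p of 0.0211 that rose as far as 0.123 when GFW1, GFW3 or RB1 was left out. Mir7-1 read 8.16, 8.19 and 7.92 against 5.77, 5.57 and 5.32 (2.54). In the other direction, Mir142, a gene of blood cells, read 9.23, 8.67 and 8.21 against 10.61, 10.62 and 10.54 (-1.89), Mir99b was lower (-1.36), and Mir290a read 5.07, 5.11 and 4.21 against 10.50, 10.43 and 9.77. Mir290a was also high in GFK (a mean of 10.06) and near background in GFE and MDSC (3.54 and 4.0). Of 165 microRNA probe sets tested, 27 were called higher and 59 lower (median -0.17). The share called higher was below the 25.8% of all genes, and the share called lower was above 26.5%. By at least 2-fold, 13 were called higher and 15 lower. Most of those named above were higher, so the named genes do not represent the probe sets tested. The probe sets read RNA from the gene's region, and whether that is the hairpin, a longer precursor or an overlapping transcript is not known here, so no level of a mature microRNA is implied.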

How the data were processed

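RNA from 15 samples, extracted with Trizol, was labelled with biotin and hybridised to single-colour arrays, per the labels' protocols. The authors deposited log2 values made with RMA in oligo, per the submitters' processing notes; versions and the annotation build are not stated in those notes. RMA adjusts all arrays to one distribution, so a broad change in RNA content can shift other genes. The scaling alternatives shift each array by a constant, so they cannot undo this.

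Of 41345 probe sets, 23521 had 1 gene symbol, 1814 several and 16010 none, and 23328 of the first kind matched RefSeq. The probe set with the highest mean over all 15 arrays stood for a gene. All 5 groups entered 1 limma 3.58.1 model in R 4.3.3 (lmFit, eBayes), which had 10 residual and 5.33 prior degrees of freedom. Tests were 2-sided. The script was checked on simulated data. Other steps used Python 3.11.15, numpy 2.4.6, pandas 2.3.3 and matplotlib 3.10.9.

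The comparison and its gene lists were chosen with earlier results of these data known. The rule for names took the 20 higher and 20 lower called genes with the largest difference and no overlap, up to 4 called members per list with further members by value, the 8 most variable genes per set, and cell type markers.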

Additional observations from a re-analysis of the deposited data

How the results depend on the processing

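Counts of genes called higher and lower kept within 1.5 times of 3831 and 3929 under every alternative run, except a test against a minimum of 1.5-fold (treat in limma), which called 1198 higher and 727 lower. Leaving out 1 array at a time gave 3495 to 3793 higher and 3335 to 3804 lower, with 1210 to 1350 and 706 to 800 by at least 2-fold. With the replicate number of the titles as a replicate block, 3782 were higher and 3852 lower (1257 and 740 by at least 2-fold). Same-numbered RB and GFW arrays deviated from their set means with correlations across genes of 0.038, 0.03 and 0.026. For different-numbered arrays the correlations were -0.031 to -0.001. All were small, and whether the numbers pair the arrays cannot be told from them. With only the 6 arrays in the fit, 3325 were higher and 3094 lower. The scalings by the median over genes with a symbol and over genes tested were added after the data were seen.

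The 237 genes followed were chosen with these values known and include the called genes with the largest differences. Of the 237, 226 were called and 219 kept their call and direction in every fit without 1 array. That share therefore does not speak for smaller calls. Outside the 237, the calls for Itgam, Cst7, Ms4a4d, Tlr2 and Mir17 were each lost in at least 1 of these fits. Under all settings together 176 of the genes followed kept call and direction, and 50 were no longer called under the test against 1.5-fold. The direction reversed for 3 genes that were not called, and the cause was not tested. Ltf read 0.05 with the median over genes with a symbol and up to 0.06 without RB2. Siglech read -0.10 with the median over genes tested, -0.05 without GFW2, and from -0.23 to 0.26 over the fits without 1 array. Ccr7 read from -0.52 to 0.06 over those fits. Signals near background limit what could be detected.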

Other observations

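Of 19 prostaglandin and leukotriene genes, 7 were called higher and 8 lower (limma). The cysteinyl leukotriene receptor Cysltr1 read 8.27, 7.93 and 7.98 in RB and 4.5, 4.47 and 4.49 in GFW, at least 11.9-fold higher. The prostaglandin-degrading enzyme Hpgd (1.42), the prostaglandin E2 receptor Ptger4 (1.21) and thromboxane synthase Tbxas1 (1.07) were higher as well. Alox5, which starts leukotriene synthesis, read 8.91, 9.25 and 8.11 against 11.25, 11.22 and 11.19 (5.51-fold lower), and the receptor Ptger2 was lower (-1.46). Among S100 and alarmin genes, 4 of 13 were called higher and 8 lower. S100a10, a partner of annexin A2, read 11.84, 11.75 and 11.64 against 8.4, 8.59 and 9.04 (8.38-fold higher), and S100a9 was lower (-1.57) as was S100a8 (-0.94). Of 14 complement genes, 3 were called higher and 6 lower. Factor B (Cfb) read 8.46, 9.1 and 9.38 against 6.69, 6.5 and 6.73 (5.06-fold higher), and the receptor C3ar1 was higher (at least 1.99) while C5ar1 was lower (-2.43).

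Of 7 eosinophil genes tested, 3 were called lower and none higher. Siglecf read 5.52, 5.49 and 6.16 in RB and 8.88, 8.93 and 8.77 in GFW (8.81-fold lower), whereas the granule genes Prg2, Epx, Prg3 and Ear6 were near background in RB and not called. The histamine-forming enzyme Hdc read 7.94, 8.04 and 8.14 against 11.48, 11.68 and 11.5 (11.4-fold lower), while the mast cell protease gene Cpa3 was near background in both sets. Of 17 amino acid and stress response genes, 4 were called higher and 9 lower. Asns, which makes asparagine, was lower (-1.82), as were Chac1 (-1.68), the cystine transporter Slc7a11 (-1.64) and Sesn2 (-1.59), and Ddit4 was higher (1.36). Socs3, a feedback inhibitor that G-CSF signalling induces, stood at 9.17 ± 0.20 against 10.92 ± 0.10 (SD, n = 3), 3.36-fold lower.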
